A study of Homo sapiens with 26 samples.

Results

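The cytosolic ribosomal protein genes are the 60 genes of the array table whose symbol is that of a protein of the small (RPS) or large (RPL) ribosomal subunit. They were chosen by symbol alone, without S6 kinases and ribosomal-protein-like genes, and make up 60 of 17283 named genes. The set holds 22 RPS genes and 38 RPL genes, including the stalk protein gene RPLP2, which are read by 67 of the 21101 named probes. Of these genes, 7 (RPL6, RPL8, RPL9, RPL13, RPL32, RPL34 and RPL36) have a pair of probes and the others a single one. The 60 genes lie on 20 chromosomes, with 8 on chromosome 19 and 6 on chromosome 17.

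Total RNA of HCT116, a human colon carcinoma line, was hybridised to 26 one-colour Illumina arrays. Cells were labelled p53 wild type (WT-labelled below) or p53 knockout (KO-labelled), an isogenic derivative whose gene for the stress-responsive transcription factor p53 was disrupted. Both were untreated or held for 16 h in leptomycin B at 2 or 20 nM, and all groups were grown in McCoy medium with serum, antibiotics and glutamine. Each label has 7 untreated arrays, 3 at 2 nM and 3 at 20 nM. The arrays fall into 2 slide series: series 1 holds 3 untreated arrays of each label and the 20 nM arrays, and series 2 holds 4 untreated arrays of each label and the 2 nM arrays. Each response was therefore taken as treated minus untreated within a label and a series. In series 1 no slide holds both treated and untreated arrays, so in the 20 nM responses treatment and slide cannot be told apart. In series 2 the treated and untreated arrays of a label share a slide. The labels do not give the replicates as separate cultures, so each p-value reflects the spread of these arrays alone, which may be technical, and their number limits the precision.

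Ribosomal proteins assemble with ribosomal RNA in the nucleolus into pre-ribosomal subunits. The export receptor XPO1 (CRM1), which leptomycin B blocks by a covalent bond, carries both pre-subunits to the cytoplasm. Their mRNAs belong to the TOP class, which begins with a C followed by a run of pyrimidines and is held back from translation when mTOR signalling falls. Free RPL5 and RPL11, together with 5S ribosomal RNA, bind the ubiquitin ligase MDM2 and so stabilise p53.

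The genotype labels could not be read at face value. CDKN1A, the p53-induced cell cycle inhibitor p21, ranged from 5212 to 17963 in untreated WT-labelled arrays and from 1291 to 3463 in untreated KO-labelled arrays of series 1. In series 2 it ranged from 615 to 1016 in WT-labelled and from 4031 to 4672 in KO-labelled arrays, so the order of the labels was the opposite. Untreated WT-labelled replicates 5 and 6 read 17672 and 17963, and replicate 4 read 5212. At 20 nM CDKN1A read 16770 to 18949 in WT-labelled and 1658.5 to 1764 in KO-labelled arrays, overlapping the untreated arrays of each label. At 2 nM it read 1198 to 1311 in WT-labelled and 19727 to 21890 in KO-labelled arrays, above all untreated ones of each label in that series. Untreated replicates 4 and 10 of both labels also stood apart: the SD of their log2 deviations from their group lay between 0.282 and 0.395, against at most 0.21 on the other arrays. Epithelial markers summed to between 27010 and 41780 on every array, with EPCAM, KRT8, KRT18 and KRT19 high and CDH1, LGALS4 and CLDN4 near the floor. Fibroblast markers summed to at most 54.4, with 9 or 10 of 11 at or below the floor of 10 in each group, so those cells' markers were near 0. Blood and endothelial markers had 9 to 12 of 14 at or below the floor, and their sums were higher on all treated arrays than on untreated ones in 3 of the 4 responses. In series 1 they went from between 143 and 155 untreated to between 184 and 194 at 20 nM in WT-labelled arrays, and from between 140 and 174 to between 295 and 305 in KO-labelled ones. In series 2 they went from between 142 and 157 to between 295 and 330 at 2 nM in WT-labelled arrays, and from between 111 and 158 to between 147 and 160 in KO-labelled ones. HBA1, a haemoglobin chain, and CD14, a monocyte receptor with a mean intensity of only 11.6, were called higher in all 4 responses. At 2 nM, 1 marker of the blood and endothelial list was called lower in each label. The epithelial markers went both ways. EPCAM was called lower in all 4 responses. CDX2 was called higher in all 4, by 0.58 and 0.86 at 20 nM and 0.50 and 0.59 at 2 nM (WT-labelled, then KO-labelled). The part of these markers in the results below was not tested.

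The transcription starts of members that moved and of members that did not are shown because the pyrimidine run at the start is the shared regulatory feature of the family. RefSeq promoters (GRCh38.p14) matched 51 of the 60 genes by symbol, all but RPL30, RPL8, RPL23, RPL23A, RPL5, RPL7, RPS15A, RPL37 and RPS20. Each line gives 35 bases before and 25 bases from the annotated start, 5′ to 3′ on the gene's strand, with the run in capitals. The first 5 genes were higher in responses described below, the next 2 were lower, and the last 3 passed the test in none. RPL41, chr12:56116598-56116657, plus strand. RPS23, chr5:82278330-82278389, minus strand. RPS4X, chrX:72277224-72277283, minus strand. RPL34, chr4:108620541-108620600, plus strand. RPS7, chr2:3575225-3575284, plus strand. RPL10A, chr6:35468366-35468425, plus strand. RPL28, chr19:55385897-55385956, plus strand. RPS6, chr9:19380212-19380271, minus strand. RPS14, chr5:150449715-150449774, minus strand. RPL38, chr17:74203643-74203702, plus strand.
RPL41: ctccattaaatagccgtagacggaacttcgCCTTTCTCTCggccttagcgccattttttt
RPS23: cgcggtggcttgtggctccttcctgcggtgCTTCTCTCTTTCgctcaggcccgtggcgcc
RPS4X: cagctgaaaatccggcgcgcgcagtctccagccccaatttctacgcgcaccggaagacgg
RPL34: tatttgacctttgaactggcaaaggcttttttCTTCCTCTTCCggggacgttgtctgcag
RPS7: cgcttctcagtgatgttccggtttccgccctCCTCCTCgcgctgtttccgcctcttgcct
RPL10A: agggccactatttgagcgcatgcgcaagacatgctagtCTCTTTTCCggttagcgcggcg
RPL28: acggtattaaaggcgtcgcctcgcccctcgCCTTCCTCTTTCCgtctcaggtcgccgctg
RPS6: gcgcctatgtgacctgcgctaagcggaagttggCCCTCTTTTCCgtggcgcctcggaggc
RPS14: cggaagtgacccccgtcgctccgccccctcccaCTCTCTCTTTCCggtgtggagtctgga
RPL38: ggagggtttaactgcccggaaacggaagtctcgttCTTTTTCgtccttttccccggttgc

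The run searched for was a C followed by at least 4 further C or T, beginning within 5 bases of an annotated start on the gene's strand. It was found in 43 of the 51 members (84.3%), against 25.2% of 27305 genes in the same table. On the other strand it was found in 9.8% of members and 22.3% of all genes. The motif CCGGAAG, the core bound by ETS factors such as GABPA, was found on either strand of the windows of 250 bases before to 50 after the start, in 37.3% of members and 12.2% of all genes, and the TATA box TATAAA in 7.84% and 14%. The reverse complement of CCGGAAG begins with a run by this rule, so the same bases can count for both. Of matched members higher in all 4 responses, 4 of 5 held the run, and RPS4X did not at this start. The run was present in 4 of 4 members that were lower in at least 2 responses and in 11 of 15 that passed the test in none.

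Member probes are among the brightest on the array. On each array the 67 probes took between 9.21% and 10.5% of the summed intensity, and 28 to 33 of the 100 brightest probes were theirs. The share was 10.2% ± 0.244 (SD, n = 3) in untreated and 10.3% ± 0.122 (SD, n = 3) in 20 nM WT-labelled arrays. In KO-labelled arrays of series 1 it was 9.92% ± 0.134 (SD, n = 3) untreated and 9.66% ± 0.0412 (SD, n = 3) at 20 nM. In series 2 it went from 9.32% ± 0.0795 (SD, n = 4) to 9.55% ± 0.0147 (SD, n = 3) in WT-labelled and from 9.39% ± 0.235 (SD, n = 4) to 10% ± 0.0782 (SD, n = 3) in KO-labelled arrays. All arrays share a median of 10.2 in the deposited table, while the highest intensity of an array lay between 21034 and 27669. A change of all mRNA alike would not show in these shares.

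**Figure D1:**
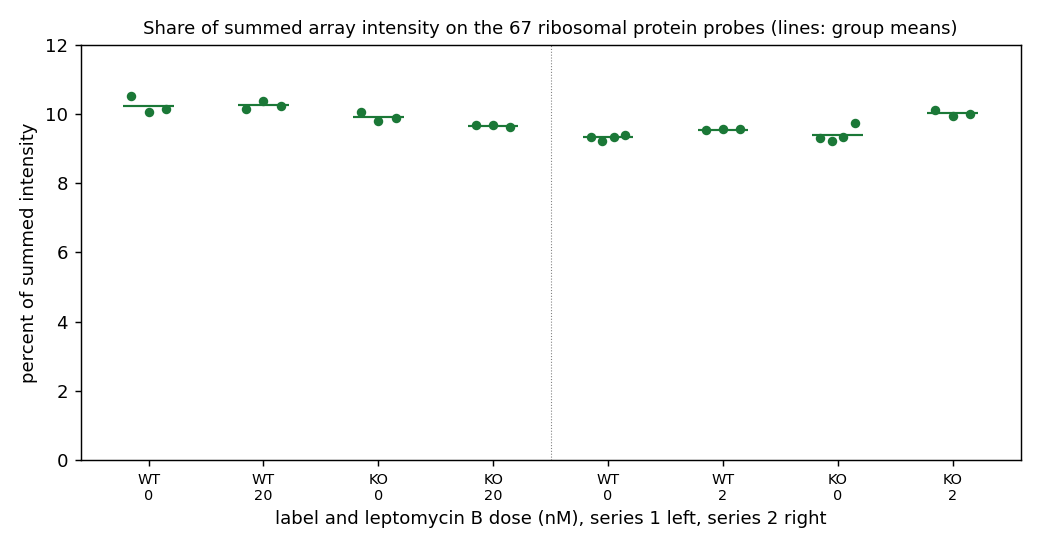
Percent of the summed intensity of each array that fell on the 67 ribosomal protein probes (y axis, from 0), by label and leptomycin B dose in nM (x axis). Each point is 1 array and each line a group mean; all 26 arrays lie between 9.21 and 10.5 percent.

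Read from the brightest probe, 34 members had a mean intensity of at least 10000, 15 lay between 1000 and 10000, and 11 lay below 1000. A probe was called dim where its mean lay under 698, a 20th of the median over members. By that rule 9 genes were dim at their brightest probe (RPL10, RPL27A, RPL28, RPL32, RPL36A, RPL37, RPL37A, RPL41 and RPS26), as were the second probes of RPL13, RPL32, RPL34 and RPL36. The RPL10 probe lay between -5.59 and 6.38, below the floor of 10 on all 26 arrays, so RPL10 has no measurement here. Probe intensities of different genes cannot be ranked against each other, and which stretch of a transcript, or which processed pseudogene, a probe reads was not tested.

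Most members stayed within a narrow band. In WT-labelled cells at 20 nM, 13 of 60 members were higher and 5 lower by limma with an adjusted p under 0.05 over all 15034 probes tested, or 30% of members against 42.9% of all 12962 genes (20.9% higher and 22% lower). In KO-labelled cells at 20 nM, 9 were higher and 11 lower, or 33.3% against 36.8% of all genes (18.1% higher and 18.7% lower). At 2 nM in WT-labelled cells, 13 were higher and 2 lower, or 25% against 36% of all genes (17.1% higher and 18.8% lower). At 2 nM in KO-labelled cells, 25 were higher and 1 lower, or 43.3% against 43.3% (21.6% higher and 21.7% lower). Among members called at 2 nM in KO-labelled cells the split was 25 to 1, where the split over all genes was 2797 to 2811.

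The median change of the 60 members was 0.01 in WT-labelled and -0.02 in KO-labelled cells at 20 nM, and 0.04 and 0.09 at 2 nM, all as log2 differences. The median over all genes tested was 0 in each. Without RPL10, changes of under 0.2 in size were seen in 39, 41, 44 and 38 of 59 members, in the order WT-labelled 20 nM, KO-labelled 20 nM, WT-labelled 2 nM and KO-labelled 2 nM, or 66.1%, 69.5%, 74.6% and 64.4%. Over all genes the shares were 40.3%, 43.5%, 45.9% and 42.1%. Of the 34 bright members, 33, 32, 34 and 30 stayed within 0.2, or 97.1%, 94.1%, 100% and 88.2%. Of the 88 genes of the same brightness that are no members, 63.6%, 73.9%, 70.5% and 61.4% did. Bright member probes reached means of 22597, while the highest intensity on an array lay between 21034 and 27669, and the part of the scale's upper end in their narrow range was not tested.

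**Figure D2:**
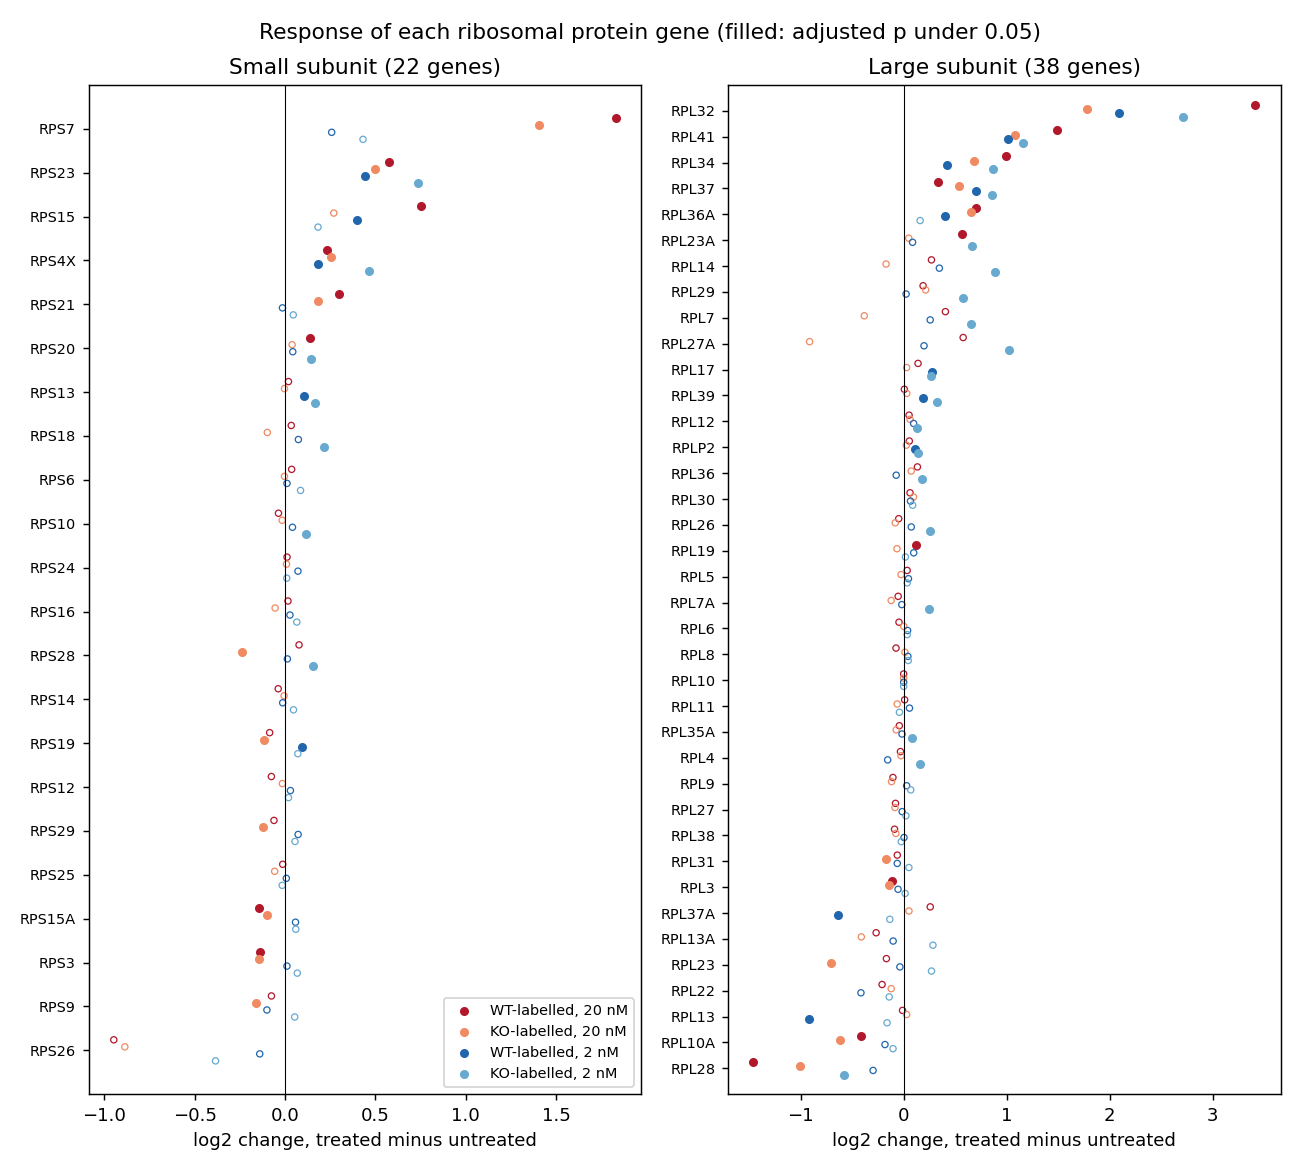
Log2 change of each member (rows) from untreated to leptomycin B, at its brightest probe, for the 4 label and dose combinations (colours); filled points passed the limma test at an adjusted p under 0.05. RPL32, RPL41, RPL34 and RPS7 lie far to the right, RPL28 far to the left, and most genes lie close to 0.

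At 20 nM in WT-labelled cells, 6 of 22 small-subunit genes were higher and 2 lower, and 7 of 38 large-subunit genes were higher and 3 lower, or 36.4% and 26.3% called against 42.9% of all genes. In KO-labelled cells at 2 nM, 7 of 22 small-subunit and 18 of 38 large-subunit genes were higher, with medians of 0.07 and 0.13. The shares called there in either direction were 31.8% and 50%, against 43.3% of all genes. Whether the subunits differ was not tested.

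RPL5 and RPL11, the MDM2-binding pair of the 5S particle, passed the test in none of the 4 responses. RPL5 ranged from 16629 to 17367 in untreated and from 16572 to 18049 in 20 nM WT-labelled arrays, a log2 change of 0.03 ± 0.03 (SE, n = 3 and 3, limma adjusted p = 0.494). The groups overlapped. RPL11 ranged from 21514 to 23169 untreated and from 22251 to 22887 at 20 nM in the same cells, a change of 0.01 ± 0.04, with overlap again. In the other 3 responses RPL5 gave log2 differences of -0.03, 0.05 and 0.03 and RPL11 -0.06, 0.06 and -0.04, in the order KO-labelled 20 nM, WT-labelled 2 nM and KO-labelled 2 nM. RPS6, the substrate of the S6 kinases, gave 0.04, 0.00, 0.01 and 0.09 and RPS14, a small-subunit protein whose loss marks 5q- syndrome, gave -0.04, -0.01, -0.01 and 0.05. Neither passed the test in any response, although without 1 KO-labelled 2 nM array (replicate 1) RPS14 did in that one.

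Members reported in the literature to bind MDM2, a list put together after the files were seen, gave 4 higher and 1 lower of 12 at 20 nM in WT-labelled cells and 2 higher and 2 lower in KO-labelled cells. At 2 nM, 2 and 3 were higher in WT-labelled and KO-labelled cells. The shares called were 41.7%, 33.3%, 16.7% and 25%, against 42.9%, 36.8%, 36% and 43.3% of all genes, in the order WT-labelled 20 nM, KO-labelled 20 nM, WT-labelled 2 nM and KO-labelled 2 nM. Genes mutated in Diamond-Blackfan anaemia were listed in the same way. At 2 nM, 1 of 14 was higher in WT-labelled and 4 in KO-labelled cells, and 0 were lower in either. The shares called were 7.14% and 28.6%, against 36% and 43.3% of all genes. At 20 nM, 1 was higher and 1 lower in WT-labelled cells, and 1 higher and 5 lower in KO-labelled cells. That is 14.3% and 42.9% called, against 42.9% and 36.8% of all genes. The 5 lower at 20 nM in KO-labelled cells were RPL31, RPS15A, RPS19, RPS28 and RPS29, with log2 changes between -0.24 and -0.10. Of these calls, RPS28 held under every other setting, while RPL31 was lost under 2 (without 20 nM replicate 3 or untreated replicate 4). RPS19 was lost under 1 (without 20 nM replicate 1), RPS29 under 8 and RPS15A under 9. At 2 nM, RPS28 was called higher in KO-labelled cells and RPS19 in WT-labelled cells, calls lost under 2 and 5 settings. These 2 were the only members called both ways over the 4 responses, as were 412 of all 12962 genes.

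Members higher in all 4 responses were RPL32, RPL34, RPL37, RPL41, RPS23 and RPS4X, 6 of 60 or 10%, against 8.09% of all genes. Of the 59 members without RPL10, 17 passed the test in no response, or 28.8% against 34.2% of all genes. The responses of a label at one dose share no arrays with any other response. Treated arrays lay wholly above the untreated ones in 15, 11, 15 and 29 of 60 members and wholly below in 7, 16, 5 and 1. The order is WT-labelled 20 nM, KO-labelled 20 nM, WT-labelled 2 nM and KO-labelled 2 nM. Over all genes, 53.7%, 47.2%, 49.9% and 50.4% did not overlap in 1 direction or the other. Members and all genes were counted here on values before the floor. RPL10, which has no measurement, is therefore among the 15 in WT-labelled cells at 20 nM. A lack of overlap between treated and untreated arrays, as given below, is thus common on these arrays.

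RPL32, a large-subunit protein, gave the largest changes of the set on a dim probe. Its brighter probe read 23.6, 23 and 25.1 on untreated and 240.4, 261 and 261 on 20 nM WT-labelled arrays. On KO-labelled arrays of series 1 it read 23.6, 29.2 and 29.7 untreated and 102, 92.5 and 87.1 at 20 nM. All treated arrays lay above all untreated arrays, and the WT-labelled treated arrays lay above the KO-labelled ones. The log2 change was 3.41 ± 0.25 (SE, limma adjusted p = 2.94e-09) in WT-labelled and 1.78 ± 0.25 (adjusted p = 1.98e-05) in KO-labelled cells.

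In series 2, RPL32 read between 18 and 32.9 on untreated and 142, 135 and 71 on 2 nM WT-labelled arrays. It read between 18.9 and 33.5 on untreated and 219, 178 and 143 on 2 nM KO-labelled arrays. Groups did not overlap, and here the KO-labelled treated arrays were the higher ones. The changes were 2.09 ± 0.24 (adjusted p = 1.16e-06) and 2.71 ± 0.24 (adjusted p = 2.20e-08, n = 3 and 4 in each, limma). The second RPL32 probe, with a mean of only 37, rose by far less, with log2 changes of 0.70, 0.57, 0.36 and 0.42 in the order WT-labelled 20 nM, KO-labelled 20 nM, WT-labelled 2 nM and KO-labelled 2 nM.

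RPL41, the smallest protein of the ribosome, rose in each response. Its only probe, which is dim, read 103, 143 and 124 on untreated and 369, 341 and 323 on 20 nM WT-labelled arrays. In KO-labelled arrays it read 165, 182 and 182 untreated and 385, 380.3 and 356 at 20 nM. No groups overlapped, and the log2 changes were 1.49 ± 0.10 and 1.08 ± 0.10 (limma adjusted p = 8.49e-10 and 1.23e-07). At 2 nM the arrays read 257, 277 and 276 against 118 to 146 untreated in WT-labelled cells, and 209, 222 and 222 against 87.7 to 112 in KO-labelled cells. The changes were 1.01 ± 0.10 and 1.16 ± 0.10 (adjusted p = 1.08e-07 and 9.52e-09), again without overlap.

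RPL34, another large-subunit protein, is not dim at its brighter probe. It read 1079, 1420.4 and 1319 on untreated and 2312, 2418 and 2839.6 on 20 nM WT-labelled arrays, and 1005, 1404 and 1578 against 1926, 2203 and 2178 in KO-labelled cells. Treated arrays were the higher ones throughout. The log2 changes were 0.99 ± 0.16 and 0.68 ± 0.16 at 20 nM, and 0.42 ± 0.15 and 0.87 ± 0.15 at 2 nM, with limma adjusted p of 3.45e-05, 1.77e-03, 0.0294 and 6.75e-05. The WT-labelled 2 nM call was lost on leaving out 2 nM replicate 1 or 3 or untreated replicate 10.

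RPS23, a decoding-centre protein, read 866, 634 and 591 on untreated and 1049, 1040.5 and 984 on 20 nM WT-labelled arrays, and 1119, 862 and 902 against 1338, 1404 and 1306 in KO-labelled ones. Its log2 changes were 0.58, 0.50, 0.44 and 0.74 in the order WT-labelled 20 nM, KO-labelled 20 nM, WT-labelled 2 nM and KO-labelled 2 nM. The arrays of each response did not overlap, but the WT-labelled 2 nM call was lost without any of 6 single arrays, and the KO-labelled 20 nM call under 4 settings, slide as a random block among them. RPS4X, the X-linked copy of a small-subunit protein, rose from between 9223 and 11271 on untreated arrays of both labels to between 11575 and 14281 on treated ones. It is the one bright member called higher in all 4, by 0.23, 0.26, 0.18 and 0.46. RPL37, a dim large-subunit gene, rose by 0.33, 0.53, 0.71 and 0.86.

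RPS7, a small-subunit protein that binds MDM2, was called higher in both labels at 20 nM. It read 1374, 577 and 545 on untreated and 2598, 2545 and 2938 on 20 nM WT-labelled arrays, and 1789.7, 802 and 919 against 2730.5, 2769 and 3232 in KO-labelled cells. Groups did not overlap, and untreated replicate 4 was the high one in both labels. The log2 changes were 1.83 ± 0.31 and 1.40 ± 0.31 (limma adjusted p = 8.08e-05 and 1.42e-03), and 2.26 and 1.76 without untreated replicates 4 and 10.

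In series 2, RPS7 already read 1705 to 2840.2 in untreated WT-labelled and 1300 to 2212 in untreated KO-labelled arrays, against 2782 to 2818 and 2334 to 2634 at 2 nM. The changes of 0.26 and 0.43 did not pass the test in the fit over all arrays; without untreated replicates 4 and 10, RPS7 was called higher in KO-labelled cells at 2 nM. RPS7 thus gave a dose difference, 20 minus 2 nM, of 1.27 ± 0.30 (adjusted p = 6.78e-03), in which dose and slide series cannot be told apart.

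Members higher in part of the responses included RPS15, a protein of the small-subunit head, which read 1142, 1219.5 and 1072 untreated and 2064, 1910.5 and 1813 at 20 nM in WT-labelled cells, a change of 0.75 ± 0.12 (limma adjusted p = 5.67e-05). RPL36A rose by 0.71 and 0.66 at 20 nM, on a probe near the floor of 10. It read 11.1 to 15.9 on untreated arrays of series 1 and 15.8 to 26.4 at 20 nM. The WT-labelled 20 nM call was lost with a floor of 20. In KO-labelled cells at 2 nM, RPL14 rose by 0.89 ± 0.19 and RPL27A, a dim probe, by 1.02 ± 0.35 (adjusted p = 7.02e-04 and 0.0230). The RPL27A call was lost without any of 5 single arrays.

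**Figure D3:**
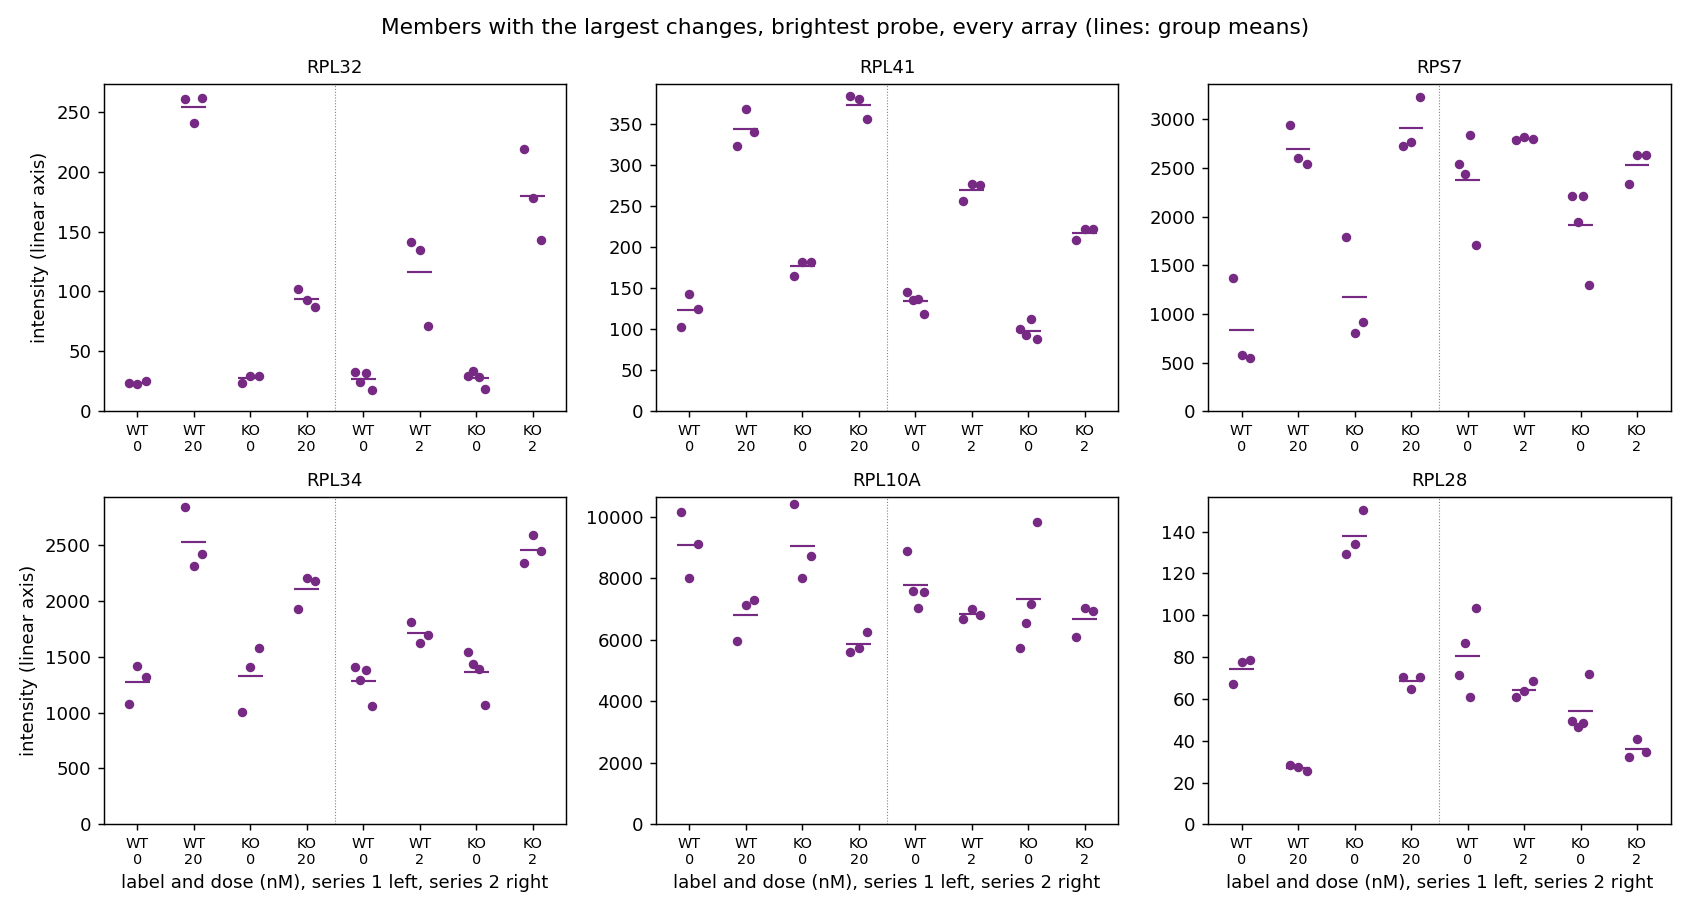
Intensity (linear y axis from 0, one scale per gene) of the brightest probe of RPL32, RPL41, RPS7, RPL34, RPL10A and RPL28 on every array, by label and leptomycin B dose in nM, series 1 left of the dotted line and series 2 right. Points are arrays and lines group means; RPL32 goes from at most 25.1 to at least 240.4 in WT-labelled cells at 20 nM, and RPL28 is lower in both labels at 20 nM.

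RPL28, a large-subunit protein with no counterpart in Saccharomyces cerevisiae, gave the largest falls at 20 nM in the fit over all arrays, also on a dim probe. It read 67.3, 77.5 and 78.7 on untreated and 27.4, 25.3 and 28.6 on 20 nM WT-labelled arrays, and 129, 134 and 150.4 against 70.6, 64.7 and 70.4 in KO-labelled cells. No treated array reached an untreated one of its label. The log2 changes were -1.46 ± 0.16 and -1.01 ± 0.16 (limma adjusted p = 6.92e-07 and 8.13e-05). At 2 nM the change of -0.57 ± 0.15 in KO-labelled cells passed the test (adjusted p = 4.89e-03), and that of -0.30 in WT-labelled cells did not pass the test.

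RPL10A, the protein of the mobile L1 stalk, fell in both labels at 20 nM on a probe that is not dim. It read 10169, 8017 and 9107 on untreated and 7147, 7301 and 5970.1 on 20 nM WT-labelled arrays, and 10414, 8017 and 8717 against 5615, 5746 and 6265 in KO-labelled cells. Treated arrays were the lower ones without overlap. The log2 changes were -0.42 ± 0.15 (limma adjusted p = 0.0304) and -0.62 ± 0.15 (adjusted p = 2.92e-03). The WT-labelled call was lost without 20 nM replicate 3 or untreated replicate 4 or 6, and with slide as a random block. RPS3, at the mRNA entry channel, fell in both labels with changes of -0.14 and -0.14, as did RPS15A with -0.14 and -0.10 and RPL3, near the peptidyl transferase centre, with -0.12 and -0.14. The RPL3 call in WT-labelled cells had an adjusted p of 0.0443 and was lost under 18 of the other settings, and that in KO-labelled cells under 4. In KO-labelled cells RPL23 fell, at -0.70 ± 0.23, and so did RPS28, at -0.24 ± 0.05 (adjusted p = 0.0245 and 1.28e-03). The RPL23 call was lost without 20 nM replicate 2 or 3 or untreated replicate 6, and with slide as a random block. WT-labelled 20 nM arrays were split on RPL23: replicate 3 read 3761, and replicates 1 and 2, on another slide, read 7332.5 and 6247. The KO-labelled 20 nM arrays read 3340 to 3503. Replicate 3 was also the low WT-labelled array on RPL27A (523 against 1914 and 1905), RPL14 (2587 against 4330 and 4435) and RPL7 (2355 against 4731 and 4147). The cause of this split was not tested.

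The calls of RPS26 and RPL13 changed with the untreated arrays used. RPS26, at the mRNA exit site and on a dim probe, read 64.3, 264 and 276 on untreated and 92.3, 89.9 and 78.6 on 20 nM WT-labelled arrays. Untreated replicate 4 was low in both labels, at 64.3 and 55.5, and RPS26 passed the test in none of the responses. Without untreated replicates 4 and 10 it was among the members called in all 4, as lower in each. The remaining untreated KO-labelled arrays of series 1 read 249 and 285, against 78.6 to 94.8 at 20 nM. In series 2 the remaining untreated arrays read 99.1 to 115 in WT-labelled and 117 to 125 in KO-labelled cells. At 2 nM the arrays read 85.2 to 91.7 and 81.6 to 89.0. RPL13, a large-subunit protein, read 3485, 3294, 3401 and 5126 on untreated and 1978, 2039 and 1958 on 2 nM WT-labelled arrays, where the last untreated value is replicate 10. The change was -0.92 ± 0.29 (limma adjusted p = 0.0188) with that array and -0.77 without untreated replicates 4 and 10, and the call was lost without replicate 10 alone or 2 nM replicate 1 or 3.

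For RPL6, RPL8 and RPL9 the dimmer probe was called higher in all 4 responses, and the brighter probe passed the test in none. The dimmer RPL36 probe was called higher at 20 nM in both labels, and the brighter one in KO-labelled cells at 2 nM, at 0.18, a call lost under quantile normalization or without 2 nM replicate 2. The dimmer RPL13 probe was called in WT-labelled cells at 20 nM, at 1.24, and gave -0.12 at 2 nM there. The dimmer RPL6 probe read 729, 713 and 683 on untreated and 2059, 2351 and 2246 on 20 nM WT-labelled arrays, while the brighter one read 22940, 20662 and 23361 and then 21648, 20980 and 22181. The dimmer probe did not overlap and the brighter one did. At 2 nM the dimmer RPL6 probe read 2042, 2003 and 1984 against 1512, 1399, 1617 and 1039.8 untreated in WT-labelled cells, and again no arrays overlapped.

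For RPL9, the dimmer probe read 578, 573 and 603 untreated and 1262, 1444 and 1502 at 20 nM, and the brighter one 21308, 20522 and 20159 and then 20760, 18826 and 18159, all in WT-labelled cells. For RPL8, part of the peptidyl transferase centre, the dimmer probe read 580.5, 423 and 371 and then 842, 895 and 923. For RPL36 the dimmer probe, which is dim by the rule, read 241, 118 and 112 and then 569, 648 and 679. On the dimmer probes of RPL6, RPL8 and RPL9, all 12 treated arrays lay above every untreated array of their label and series, and on that of RPL36 11 of 12 did.

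The mean response over the 4 label and dose combinations was larger on the dimmer probe by 1.09 for RPL6, 1.09 for RPL9, 0.755 for RPL8, 1.03 for RPL36 and 0.77 for RPL13, as log2 differences. An exact two-sided permutation test of treated and untreated arrays within label and series, with 490000 rearrangements, gave p = 2e-06 for RPL6, RPL8 and RPL9, the smallest it allows. It gave 4.1e-05 for RPL36 and 6.35e-04 for RPL13. Adjusted by Benjamini-Hochberg over the 7 pairs these were 4e-06, 5.7e-05 and 7.4e-04. For RPL32 the difference had the other sign, -1.98 (exact p = 2e-06), and for RPL34 it was -0.208 (exact p = 0.163, adjusted 0.163), which misses the threshold and does not show that both probes respond alike. Without untreated replicates 4 and 10 the differences were 1.00, 0.973, 0.747, 1.04, 0.373, -1.82 and -0.0202 for RPL6, RPL9, RPL8, RPL36, RPL13, RPL32 and RPL34. As a group the second probes were called higher in 7, 6, 4 and 5 of 7 genes by limma, against 20.9%, 18.1%, 17.1% and 21.6% of all genes, in the order WT-labelled 20 nM, KO-labelled 20 nM, WT-labelled 2 nM and KO-labelled 2 nM. The brighter probes of RPL6, RPL8 and RPL9 had means of 20953, 19955 and 20430, near the highest intensities of an array given above. The tests compare measured intensities, and whether the brighter probes could have read a rise was not tested. Which transcript form each probe of a pair reads was not tested.

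**Figure D4:**
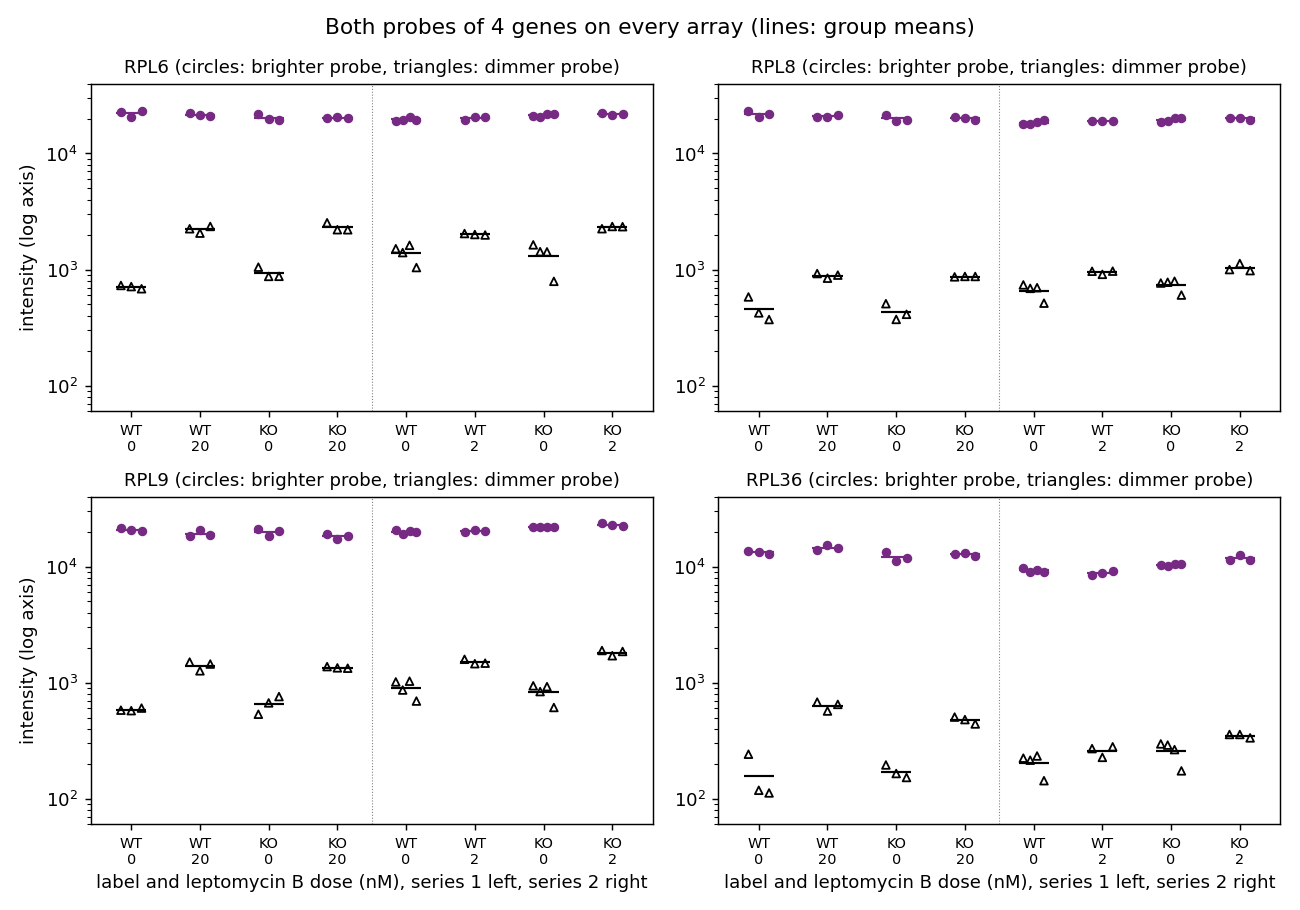
Intensity (log y axis) of both probes of RPL6, RPL8, RPL9 and RPL36 on every array, by label and leptomycin B dose in nM, series 1 left and series 2 right; circles are the brighter probe, triangles the dimmer, lines group means. The triangles of RPL6 lie between 683 and 729 untreated and between 2059 and 2351 at 20 nM in WT-labelled cells, while the circles of both groups overlap.

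**Figure D5:**
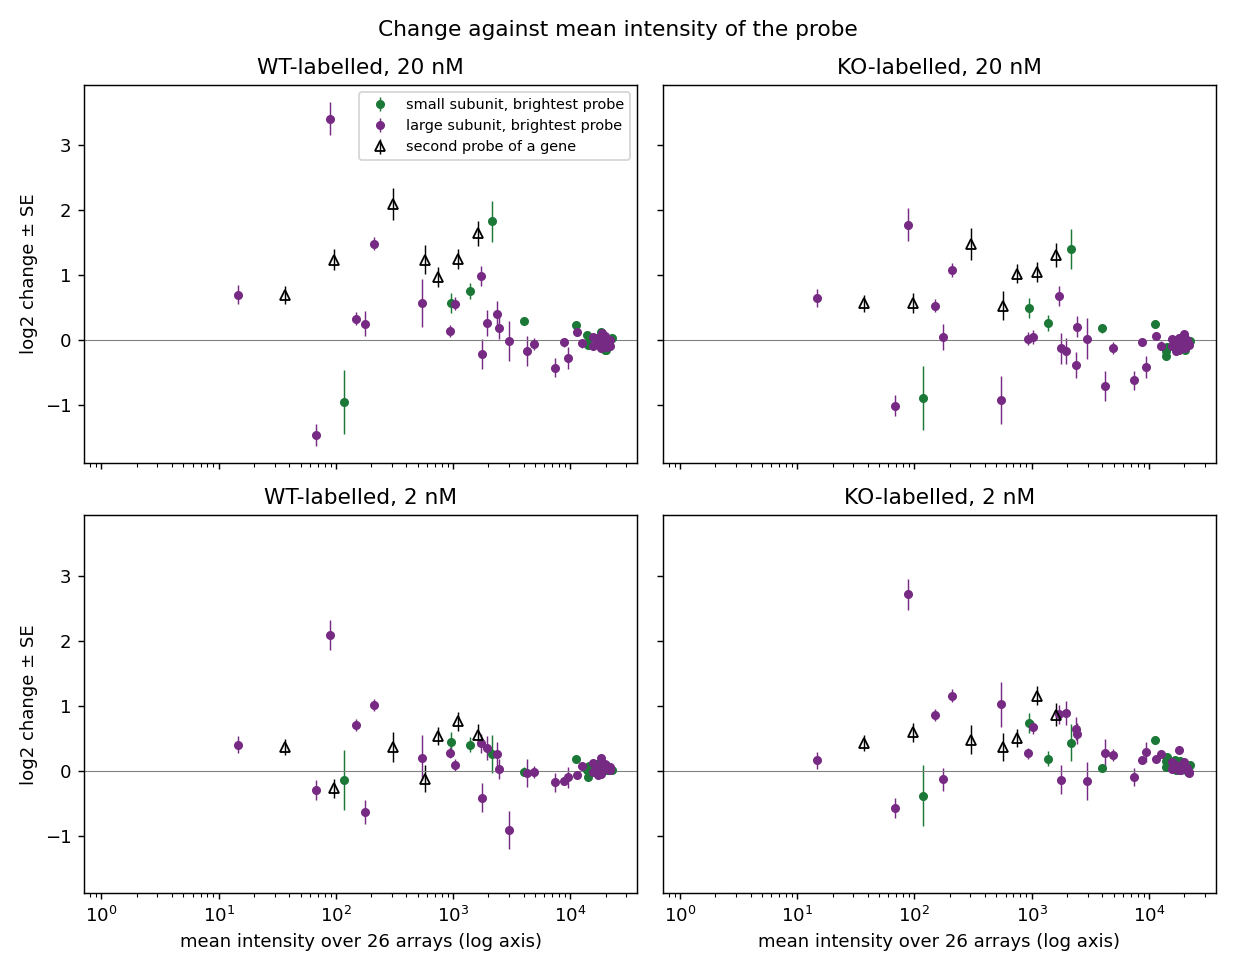
Log2 change ± SE (y axis) against the mean intensity of each probe over 26 arrays (log x axis), in the 4 responses; RPL10, which lay below the floor, is left out. Members above an intensity of 10000 lie close to 0, and the triangles (second probes) lie above it in most panels.

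Untreated cells of the labels were also compared within each series. In series 1, 5 members were higher and 1 lower in KO-labelled cells, or 10% against 14.5% of all genes (6.89% higher and 7.64% lower). In series 2, 5 were higher and 8 lower, or 21.7% against 8.89% (4.17% higher and 4.72% lower). All 5 members that were higher in KO-labelled cells of series 1 (RPL23A, RPL28, RPL37, RPL37A and RPL41) were lower in KO-labelled cells of series 2, and the series share no arrays. The share of all genes that change sign between the series in this way was not worked out. CLDN7, an epithelial marker outside the set, also changed sign, at -0.52 and 0.54, both called. RPL23A, a large-subunit protein at the exit tunnel, read 771, 710.4 and 732 in WT-labelled and 1484, 1338 and 1374 in KO-labelled untreated arrays of series 1, without overlap. In series 2 it read 1107, 1072, 979.8 and 1270.4 in WT-labelled and 507, 535, 492 and 705 in KO-labelled arrays, again without overlap. The differences were 0.92 ± 0.10 and -0.99 ± 0.09 (limma adjusted p = 6.92e-06 and 3.51e-07). RPL37A gave 1.07 ± 0.20 and -0.89 ± 0.17, and RPL28 gave 0.89 ± 0.16 and -0.57 ± 0.14, the latter lost under 3 settings, slide as a random block among them. The largest rises in KO-labelled cells of series 2 were RPS16, RPL36 and RPL11, by 0.17, 0.16 and 0.14. These calls were lost under 1, 8 and 2 settings. The fall in series 1 was RPS15A, at -0.11, a call lost under 19 settings.

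Replicate numbers pair the untreated arrays of the labels, and with the number as a block 13 members were called in series 1 (8 higher, 5 lower) and 24 in series 2 (11 higher, 13 lower), or 21.7% and 40% of members against 28.1% and 19.8% of all probes. In this second series each label lies on a slide of its own, so label and slide cannot be told apart there. In series 1 the untreated WT-labelled arrays share a slide with KO-labelled replicate 4 alone. KO-labelled replicates 5 and 6 lie on another slide, so label and slide can hardly be told apart in series 1 either. The high CDKN1A label also changed between series, as above.

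Responses of the labels differed in few members when the difference itself was tested. At 20 nM 3 members were called, or 5% against 8.53% of all genes (4.76% with a higher and 3.77% with a lower log2 change in KO-labelled cells). All 3 had the lower log2 change in KO-labelled cells: RPL32 by -1.63 ± 0.36 (limma adjusted p = 6.62e-03), RPL23A by -0.52 ± 0.15 and RPS28 by -0.32 ± 0.07. RPS28 gave 0.08 in WT-labelled cells, which did not pass the test, and a called -0.24 in KO-labelled cells. The RPL23A call was lost under 10 other settings, among them no filter and slide as a random block. At 2 nM 4 were called, or 6.67% against 11.7% (5.87% higher and 5.88% lower), all with the higher log2 change in KO-labelled cells: RPL23A by 0.58 ± 0.14 (adjusted p = 7.77e-03), RPL4 by 0.32 ± 0.09, RPS4X by 0.28 ± 0.07 and RPL36 by 0.25. The RPL4 and RPS4X calls were lost under quantile normalization, that of RPL4 also without WT-labelled 2 nM replicate 2, KO-labelled 2 nM replicate 2 or KO-labelled untreated replicate 9, and that of RPL36 under 6 settings, quantile normalization among them. The RPL32 difference at 2 nM, 0.63 ± 0.34, did not pass the test (adjusted p = 0.317).

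The mean response at 20 nM minus that at 2 nM was called higher in 4 members and lower in 15, or 31.7% against 22.4% of all genes (11.4% higher and 11% lower), with a median of -0.08. RPS7, RPL37A and RPL36A were higher, by 1.27, 0.54 and 0.40, and RPL28, RPL14 and RPL37 lower, by -0.80, -0.57 and -0.35. RPL37A passed the test at 20 nM in neither label. It was called lower at 2 nM in WT-labelled cells, at -0.63 ± 0.18 (SE, limma adjusted p = 0.0104). The calls of RPL14, RPL36A and RPL37A were each lost under more than 20 other settings. Of the 34 bright members, 12 were lower, with a median of -0.08. Each dose lies in its own slide series, so the dose and the series cannot be told apart.

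Of 22 other TOP mRNAs tested, 3 were higher and 9 lower at 20 nM in WT-labelled cells and 1 and 8 in KO-labelled cells, with 1 and 8 and then 4 and 7 at 2 nM. The shares called were 54.5%, 40.9%, 40.9% and 50%, against 42.9%, 36.8%, 36% and 43.3% of all genes. EIF4B, a cofactor of the mRNA helicase eIF4A, fell with log2 changes of -1.10, -0.80, -0.50 and -0.56, EIF3L with -0.76, -0.71, -0.39 and -0.27, and NOP53, a factor of 60S assembly, with -0.84, -1.18, -0.74 and -0.27, in the order WT-labelled 20 nM, KO-labelled 20 nM, WT-labelled 2 nM and KO-labelled 2 nM. EEF2, the translocation factor, fell with -0.48, -0.46 and -0.23 and gave -0.12 in KO-labelled cells at 2 nM, which did not pass the test. Others of the list rose. NACA rose by 0.87 and 1.14 at 20 nM, and its 0.25 and 0.13 at 2 nM did not pass. BTF3 rose by 0.37 in WT-labelled 20 nM, 0.235 in WT-labelled 2 nM and 0.65 in KO-labelled 2 nM cells. It gave 0.08 in KO-labelled cells at 20 nM, which did not pass.

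Among 18 tested genes of pre-ribosome export and late maturation, 10 were higher and 3 lower at 20 nM in WT-labelled cells, 4 and 4 in KO-labelled cells, and 5 and 5 and then 6 and 4 at 2 nM. That is 72.2%, 44.4%, 55.6% and 55.6% called, beside the same shares of all genes. RIOK2, a kinase of late 40S maturation, rose by 2.88, 2.40, 1.25 and 1.06 in the same order, and NOB1, the nuclease that trims the 3′ end of 18S RNA, by 0.65, 0.53, 0.39 and 0.52. RIOK1, its related kinase, fell with -0.77, -0.79, -1.10 and -0.84. XPO1 itself rose by 0.47, 0.59 and 0.54 in WT-labelled 20 nM, WT-labelled 2 nM and KO-labelled 2 nM cells, and gave 0.32 in KO-labelled 20 nM cells, which did not pass.

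Of 14 chaperones and importins of ribosomal proteins, 3 were higher and 6 lower at 20 nM in WT-labelled cells, with 3 and 4, 2 and 7, and 1 and 7 in the other responses, or 64.3%, 50%, 64.3% and 57.1% called against 42.9%, 36.8%, 36% and 43.3% of all genes. GRWD1, the RPL3 chaperone, fell with -0.59, -0.97, -1.29 and -1.14, and BCCIP, the RPL23 chaperone, with -0.68, -1.05, -1.19 and -1.12. HEATR3, which carries RPL5, fell with -0.55, -0.59, -0.68 and -0.58. Of 16 regulators of ribosomal protein genes and TOP translation, 3 were higher and 6 lower, 2 and 5, 4 and 5, and 3 and 8, or 56.2%, 43.8%, 56.2% and 68.8% called beside those same shares. LARP1, which binds TOP mRNAs, fell with -0.75, -0.59, -0.86 and -0.86, and MTOR with -0.63, -0.38, -0.80 and -0.97, while GABPA rose by 1.02, 0.92, 0.84 and 0.76.

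Of 4 ribosomal-protein-like or fused genes tested, 2, 2, 1 and 3 were higher, against 20.9%, 18.1%, 17.1% and 21.6% of all genes. RPS27L, a p53-induced paralogue of RPS27, rose by 0.62 and 0.93 at 20 nM and by 1.13 in KO-labelled cells at 2 nM, and gave 0.28 in WT-labelled cells at 2 nM, which did not pass. RPL26L1 rose by 1.58, 1.06, 0.52 and 0.93, while its member paralogue RPL26 passed the test only in KO-labelled cells at 2 nM, at 0.26. The difference between these paralogues was not tested.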

How the data were processed

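Per the labels' protocols, RNA from Trizol extraction was amplified with the Illumina TotalPrep kit and detected with streptavidin-Cy3. The deposited table holds a linear intensity per probe and array. The submitters' processing notes name BeadStudio; its version is not given in the sources used here, nor is the normalization. Of the values, 20.4% were below 0. Probes were named from the platform annotation: 21101 of 22177 had 1 gene symbol. Values below a floor of 10 were raised to it before log2 was taken, which understates changes of probes that read below it. Probes above the 40th percentile on at least 3 arrays were tested (15034 probes, 12962 genes, all 67 member probes). A gene was read from its brightest probe.

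A model with 8 cells (label, treatment and slide series; 18 residual degrees of freedom) was run in R 4.3.3 using limma 3.58.1 (lmFit, eBayes) and statmod 1.5.0, after a test on simulated data. P-values were Benjamini-Hochberg adjusted over all probes tested, and called where under 0.05. Probe pairs were compared by an exact permutation test over arrays (Python 3.11.15, NumPy 2.4.6). The members and lists were chosen with earlier results of these data known.

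Named genes are RPL5, RPL11, RPS6, RPS14, RPL32 and RPL41 in each response, the 5 largest called rises and falls there, the 3 largest each way elsewhere, dim members, CDKN1A and XPO1, and up to 4 called genes of each list; others were chosen after their values were seen. RPS27A was not analysed here. Replicate numbers come from the labels. Deviations of same-numbered untreated arrays of the labels correlated at 0.303 to 0.807, so these numbers pair them, while those at 20 nM (0.0361 to 0.0999) and 2 nM (-0.0469 to -0.0252) do not. Alternatives were another floor, pseudocount, filter, normalization and centring, genes fitted alone, slide as a random block, array weights, the replicate block, and single arrays or untreated replicates 4 and 10 left out. Leaving out dim members was chosen after seeing the data. The p53 transcript was not analysed here.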

Additional observations from a re-analysis of the deposited data

Results flagged for a closer look

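In the untreated groups of series 2, which hold 4 arrays each, the highest or lowest array of named members was checked with Dixon's ratio. Chance flags about 1 in 20 groups, and 9 of 67 stood out, all on replicate 10. In WT-labelled cells replicate 10 read 5126 on the brighter RPL13 probe, against 3294 to 3485 on the others, and 18507 on RPS3, against 20336 to 20610. In KO-labelled cells it read 3356 on the brighter RPL13 probe (others 2174 to 2223) and 336 on the dimmer one (others 638 to 674). There it also read 358 on RPL27A (others 162 to 168), 71.9 on RPL28 (others 46.5 to 49.4) and 11271 on RPS4X (others 9362 to 9556). RPS16 read 20349 (others 20759 to 20831) and RPS3 read 19549 (others 20618 to 20760). Both replicates 10 shared a slide with their treated arrays, and what set them apart was not tested.

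The responses of the labels differed, by the limma test of the difference, in RPL32 (-1.63), RPL23A (-0.518) and RPS28 (-0.318) at 20 nM, and in RPL23A (0.579), RPL4 (0.315), RPS4X (0.284) and RPL36 (0.255) at 2 nM, as KO-labelled minus WT-labelled log2 changes. The call of RPL23A at 20 nM was lost under 10 other settings, and those of RPL4, RPS4X and RPL36 at 2 nM under 4, 1 and 6. The RPL23A difference has opposite signs at the 2 doses, as its untreated level does between the 2 series.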

How the results depend on the processing

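Of 124 calls of members at their brightest probe over all comparisons, 58 were lost under at least 1 other setting. For 71 results named by a fixed name or by the size of a called change, each under the other settings, 2339 values kept direction and side of the threshold, 161 dropped below it, 1 passed it and none turned direction; RPS26 and genes named for other reasons are not in this tally. Counts of called members, with 18, 20, 15 and 26 in the WT-labelled 20 nM, KO-labelled 20 nM, WT-labelled 2 nM and KO-labelled 2 nM responses, changed as follows. Array weights gave 29, 38 and 24 in the first 3, and 31 and 26 for untreated labels in series 1 and 2 (6 and 13 in the main setting), 18 and 17 for label differences at 20 and 2 nM (3 and 4), and 35 for dose (19). Leaving out untreated replicates 4 and 10 gave 16, 23, 16, 14 and 29 for these 5, and a median of 0.103 for the 2 nM label difference (0.0737). Slide as a random block gave 13 for KO-labelled 20 nM, 3 for series 2 and 11 for dose. Quantile normalization gave 1 call for the 2 nM label difference, a median of 0.0607 (0.0863) for KO-labelled 2 nM and 0.00506 (-0.0433) for series 1. The replicate block gave 13 and 24 in series 1 and 2, and 8 and 14 for label differences, where treated numbers do not pair; no paired analysis was possible for the 4 responses because their arms share no replicate numbers. Without dim members, series 1 gave 2 and series 2 gave 8.

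Leaving out single arrays gave 14 to 21, 14 to 23, 7 to 18 (8 without WT-labelled 2 nM replicate 1, 7 without replicate 3) and 20 to 28 calls in the responses, 5 to 11 (11 without KO-labelled replicate 4) and 9 to 18 for series 1 and 2, 2 to 6 and 2 to 6 for label differences, and 12 to 26 for dose (12 without WT-labelled untreated replicate 6, KO-labelled untreated replicate 5 or KO-labelled 2 nM replicate 3). The median ranged from -0.0465 (without KO-labelled untreated replicate 6) to -0.0123 for KO-labelled 20 nM and from -0.0566 to -0.0205 (without KO-labelled untreated replicate 5) for series 1. The cause of these changes was not tested. The slide that holds both labels at 20 nM has 1 array of each, too few for a within-slide value, and 2 nM responses lie within a slide. Precision is limited by the number of arrays and, for dim probes, by the floor.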
